A study of Mus musculus with 24 samples.

Results

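The epithelium of the choroid plexus is represented here by 9 genes, Ttr, Folr1, Clic6, Kl, Aqp1, Enpp2, Otx2, Sostdc1 and F5. They were chosen by gene name from a table of 54532 genes measured in mouse brain, of which 27286 were above 0 in at least 6 of 24 mice and were tested. All 9 passed that filter, and 8 had a mean of at least 1 FPKM (fragments per kilobase of gene, scaled to the sequencing depth, a level per length). The exception was F5. The mice were male wild-type C57Bl6, in 4 groups of 6, and RNA came from brain hemispheres. The vehicle group received saline by osmotic minipump for 2 weeks, and the angiotensin II group received angiotensin II at 0.7 mg/kg/d in the same way. In the vehicle + AEC and angiotensin II + AEC groups the same infusions were combined with amnion epithelial cells (AECs), human epithelial cells isolated from placental membranes and injected into a tail vein. Mice without cells had saline in the tail vein, according to the methods of the study. The labels give no ages.

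The choroid plexus is a sheet of epithelium on a leaky vascular core inside the brain ventricles. Its cells secrete cerebrospinal fluid, pump ions and water across their apical face, and form the barrier between blood and that fluid. It is a small part of a whole hemisphere, and its genes are known for very high expression in that epithelium, so that a brain sample can carry a clear trace of it. The question asked of these genes was whether their RNA in the brain differed with angiotensin II, with AECs, or with both. In bulk tissue, a lower number of epithelial cells and less RNA in each cell cannot be told apart.

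The libraries held 16536449 to 25308700 fragments per mouse, and the 9 genes together took 0.0788% to 0.178% of them. A total of 6 libraries stood apart from the other 18 by a higher sum of FPKM over all genes and by mitochondrial RNA, which took 6.17% to 6.85% of their fragments against 4.79% to 5.75%. By group they were replicates 5 and 6 of vehicle and of angiotensin II + AEC, replicate 5 of angiotensin II, and replicate 6 of vehicle + AEC, so that each group held 1 or 2 of them. The 6 and the 18 libraries are given side by side below, because the members differed between them. No label names what set these libraries apart. Neuronal RNA was plentiful in every mouse, with the summed level of 6 neuronal markers between 700.7 and 793.2 FPKM. All 23 other choroid plexus markers were also detected, the most abundant being 1500015O10Rik (12.8 FPKM), the nucleoside transporter Slc29a4 (12.6 FPKM), the sulfate transporter Slc13a4 (3.49 FPKM) and the potassium channel subunit Kcne2 (2.95 FPKM).

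The members covered a wide range of levels. Ttr was the highest, with a mean of 664 FPKM over the 24 mice, and Enpp2 followed with 58.4 FPKM. The other 7 lay within a narrow band, with 4.88 FPKM for Clic6, 3.05 for Folr1, 2.74 for Sostdc1, 2.32 for Aqp1, 2.08 for Kl, 1.61 for Otx2 and 0.662 for F5. The order Ttr, Enpp2, Clic6 and the last place of F5 held in 24 of 24 mice. Within the band, neighbours were not separated: Folr1 lay above Sostdc1 in 12 of 24 mice and Aqp1 above Kl in 12 of 24. Both of these turned on the library, since Folr1 exceeded Sostdc1 in 6 of the 18 libraries and in 6 of the other 6, and the same counts held for Aqp1 over Kl. Clic6 exceeded Folr1 in 18 of 18 and in 1 of 6.

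Sequence upstream of the start was at hand for Kl, Aqp1, F5 and Otx2. It is shown because these genes include a pair that varied together and a pair that did not, as given further on. The 250 bases before the start of a RefSeq promoter entry on GRCm38.p6 are given, 5′ to 3′ on the gene's strand. These starts need not be the gene starts given further on. The Aqp1 stretch ends at 55336298, short of the gene start at 55336432. The end of the Aqp1 entry was in no GENCODE M21 transcript of the gene. The Otx2 stretch, at 48667645-48667894, lies inside the gene, which spans 48657677-48673819.

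Kl (chr5:150952357-150952606, plus strand): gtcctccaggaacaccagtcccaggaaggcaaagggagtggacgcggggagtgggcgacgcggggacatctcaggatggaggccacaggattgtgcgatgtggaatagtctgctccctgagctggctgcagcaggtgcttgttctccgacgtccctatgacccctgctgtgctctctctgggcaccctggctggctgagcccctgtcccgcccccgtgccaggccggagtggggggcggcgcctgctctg
Aqp1 (chr6:55336049-55336298, plus strand): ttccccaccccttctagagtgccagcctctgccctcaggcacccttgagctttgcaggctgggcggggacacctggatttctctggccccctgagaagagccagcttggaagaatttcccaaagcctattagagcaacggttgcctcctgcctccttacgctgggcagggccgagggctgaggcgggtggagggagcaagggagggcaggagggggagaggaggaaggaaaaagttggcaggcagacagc
F5 (chr1:164151585-164151834, plus strand): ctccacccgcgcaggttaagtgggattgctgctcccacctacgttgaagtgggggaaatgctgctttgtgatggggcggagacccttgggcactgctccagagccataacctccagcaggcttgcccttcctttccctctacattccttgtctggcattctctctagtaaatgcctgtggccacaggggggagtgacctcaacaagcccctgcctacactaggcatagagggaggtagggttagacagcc
Otx2 (chr14:48667645-48667894, minus strand): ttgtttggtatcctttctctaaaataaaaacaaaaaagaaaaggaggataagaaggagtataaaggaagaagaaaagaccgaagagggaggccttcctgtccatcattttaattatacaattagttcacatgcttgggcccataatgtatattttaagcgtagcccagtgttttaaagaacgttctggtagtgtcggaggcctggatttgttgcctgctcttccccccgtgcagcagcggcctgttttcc

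The Kl stretch was the richest in G and C of the 4 stretches, at 66.8% with 13 CG pairs, against 62.0% and 5 pairs for Aqp1, 57.2% and 4 pairs for F5, and 42.0% and 6 pairs for this Otx2 start, where the median of all 32851 promoters in the table was 52.4%. The motif TAATCC, the core bound by Otx2 and related homeodomain proteins, was searched on both strands (GGATTA is its reverse complement). It was in 1 of 7 member stretches, at another Otx2 start, and in 6.25% of all promoters of the same length. The 7 stretches come from 4 genes, with several from Otx2, some of which overlap. They are not independent promoters, so these shares are not compared. The match at the other Otx2 start is printed with 10 bases on each side and the motif in capitals, and it begins 211 bases before that start.

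Otx2 window (chr14:48665305-48665330, minus strand): tgtgcccctcGGATTAtctcgttagt

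The match is a description of these letters. No match in the Kl, Aqp1 and F5 stretches says only that the letters are not in those windows.

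Among the secreted products, Ttr encodes transthyretin, the carrier of thyroxine and, with its binding protein, of retinol in cerebrospinal fluid. The gene is on chromosome 18 and 1219 bases were counted. In vehicle mice Ttr ranged from 545 to 1112 FPKM with a median of 671, and in angiotensin II mice from 492 to 842 with a median of 592. With AECs it ranged from 503 to 921 FPKM (median 623) in vehicle mice and from 348 to 989 FPKM (median 611) in angiotensin II mice. All 4 groups overlapped, and in each group the highest value came from a library of the set of 6. The mean of Ttr was 616 ± 119 FPKM in angiotensin II mice, against 740 ± 221 FPKM in vehicle mice (SD, n = 6 each). This difference did not exceed the spread between mice (log2 fold change −0.23 ± 0.23, SE, exact permutation p = 0.290). With 8585 to 26768 fragments per mouse, counting error was a small part of this spread: the coefficient of variation over the 18 libraries was 17.0%, against 0.857% from counting alone.

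Enpp2 encodes autotaxin, a secreted enzyme that makes lysophosphatidic acid, and is also expressed by oligodendrocytes. It lies at chr15:54838901-54952892 on the minus strand. Group ranges were narrow, at 46.7 to 68.0 FPKM (median 60.3) with vehicle and 50.5 to 64.6 FPKM (median 57.7) with angiotensin II. They were 48.9 to 69.3 FPKM (median 62.4) with vehicle + AEC and 49.0 to 65.8 FPKM (median 55.6) with angiotensin II + AEC. The ranges of all 4 groups nearly coincide. Enpp2 had the tightest estimates of the 9, and in angiotensin II against vehicle its log2 fold change was −0.04 ± 0.09 (SE, exact permutation p = 0.654), with a 95% confidence interval of the fold from 0.853 to 1.11.

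F5 encodes coagulation factor V and is among the lower choroid plexus transcripts in brain. The gene is at chr1:164151838-164220277, plus strand. Levels were 0.327 to 0.932 FPKM (median 0.794) with vehicle, 0.403 to 0.940 FPKM (median 0.679) with angiotensin II, 0.407 to 0.857 FPKM (median 0.740) with vehicle + AEC and 0.339 to 0.793 FPKM (median 0.579) with angiotensin II + AEC. The lowest mouse of every group was in the set of 6 libraries. F5 had 45 to 139 fragments per mouse, the lowest single value of all members. Its log2 fold change in angiotensin II + AEC against vehicle + AEC was −0.26 ± 0.25 (SE, exact permutation p = 0.268), the lowest in that comparison.

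Of the receptors, Folr1 encodes the folate receptor that carries folate into cerebrospinal fluid, and lies at chr7:101858331-101870788 on the minus strand. In vehicle mice Folr1 ranged from 1.69 to 6.16 FPKM (median 2.93), and in angiotensin II mice from 2.40 to 3.73 FPKM (median 2.74). It ranged from 1.95 to 4.35 FPKM (median 2.75) in vehicle + AEC and from 1.66 to 4.60 FPKM (median 2.93) in angiotensin II + AEC. The group medians were close and all ranges overlapped. The fold of angiotensin II over vehicle was 0.930, with a 95% confidence interval from 0.622 to 1.39. A change of this size in either direction could not be seen in this fit, which leaves the difference between the library sets in the spread. Anapc15, on the opposite strand, overlaps Folr1 and had a mean of 2.05 FPKM. Whether the counting used strand is not stated, so the level of Folr1 may include some of its reads.

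Kl encodes klotho, the co-receptor of fibroblast growth factor 23, which is also shed into cerebrospinal fluid. Its gene is at chr5:150952607-150993817, plus strand. Vehicle mice had 1.42 to 2.51 FPKM of Kl (median 2.19) and angiotensin II mice 1.46 to 2.44 FPKM (median 2.19). The values were 1.34 to 2.65 FPKM (median 2.45) with vehicle + AEC and 1.62 to 2.62 FPKM (median 1.79) with angiotensin II + AEC. In each group the lowest Kl came from the set of 6 libraries. Kl had a log2 fold change of −0.21 ± 0.17 (SE) in angiotensin II + AEC against vehicle + AEC, which did not exceed the spread between mice (exact permutation p = 0.251).

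Aqp1 encodes the apical water channel of the epithelium and is also made by red cell precursors. It lies at chr6:55336432-55348555 on the plus strand. Levels were 1.82 to 2.85 FPKM (median 2.11) with vehicle, 1.62 to 2.58 FPKM (median 2.15) with angiotensin II, 1.51 to 3.23 FPKM (median 2.28) with vehicle + AEC and 1.78 to 3.79 FPKM (median 2.26) with angiotensin II + AEC. The groups overlapped, and the highest mouse in each was in the set of 6 libraries. The log2 fold change of Aqp1 was −0.08 ± 0.18 in angiotensin II against vehicle and 0.16 ± 0.18 in angiotensin II + AEC against angiotensin II (SE, exact permutation p = 0.584 and 0.420).

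Clic6 encodes a chloride intracellular channel protein and is used as a marker of the choroid plexus. It is at chr16:92485736-92541243, plus strand. Its levels were 4.07 to 6.13 FPKM (median 4.86) with vehicle, 4.31 to 5.40 FPKM (median 5.04) with angiotensin II, 4.01 to 5.62 FPKM (median 5.32) with vehicle + AEC and 3.57 to 5.82 FPKM (median 4.54) with angiotensin II + AEC. After Enpp2, Clic6 had the tightest estimate. Its mean was 4.93 ± 0.41 FPKM in angiotensin II mice, against 4.95 ± 0.69 FPKM in vehicle mice (SD, n = 6 each). The 95% confidence interval of that fold ran from 0.845 to 1.19.

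The last pair are regulators. Otx2 encodes a homeodomain transcription factor needed to form and maintain the choroid plexus, and lies at chr14:48657677-48673819 on the minus strand. Otx2 ranged from 1.24 to 2.14 FPKM (median 1.76) with vehicle and from 0.667 to 1.90 FPKM (median 1.53) with angiotensin II. It ranged from 1.20 to 1.97 FPKM (median 1.79) with vehicle + AEC and from 1.24 to 2.03 FPKM (median 1.57) with angiotensin II + AEC. The mouse at 0.667 FPKM, angiotensin II replicate 5, was by far the lowest of the 24 and had 47 fragments on Otx2. The difference between angiotensin II and vehicle was −0.27 ± 0.19 on the log2 scale (SE, exact permutation p = 0.307). Otx2 is also made in the pineal gland, the retina, and parts of the thalamus and midbrain. The photoreceptor and pineal factor Crx was at 0 to 0.0885 FPKM, and 6 pineal and retinal markers summed to 0.886 to 1.67 FPKM.

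Sostdc1 encodes a secreted antagonist of bone morphogenetic protein and Wnt signals, and is at chr12:36314139-36318452 on the plus strand. Vehicle mice had 2.32 to 3.99 FPKM of Sostdc1 (median 2.77) and angiotensin II mice 2.08 to 3.25 FPKM (median 2.22). With vehicle + AEC the range was 2.17 to 3.16 FPKM (median 2.98), and with angiotensin II + AEC it was 1.86 to 3.60 FPKM (median 2.69). The angiotensin II mice lay low, with 5 of 6 below the vehicle median, but the groups overlapped. Their mean was 2.42 ± 0.47 FPKM, against 2.99 ± 0.63 FPKM in vehicle mice (SD, n = 6 each). The log2 fold change of −0.29 ± 0.17 had the lowest p-value of all members and contrasts (limma adjusted p = 0.994, exact permutation p = 0.0952), and did not pass.

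**Figure D1:**
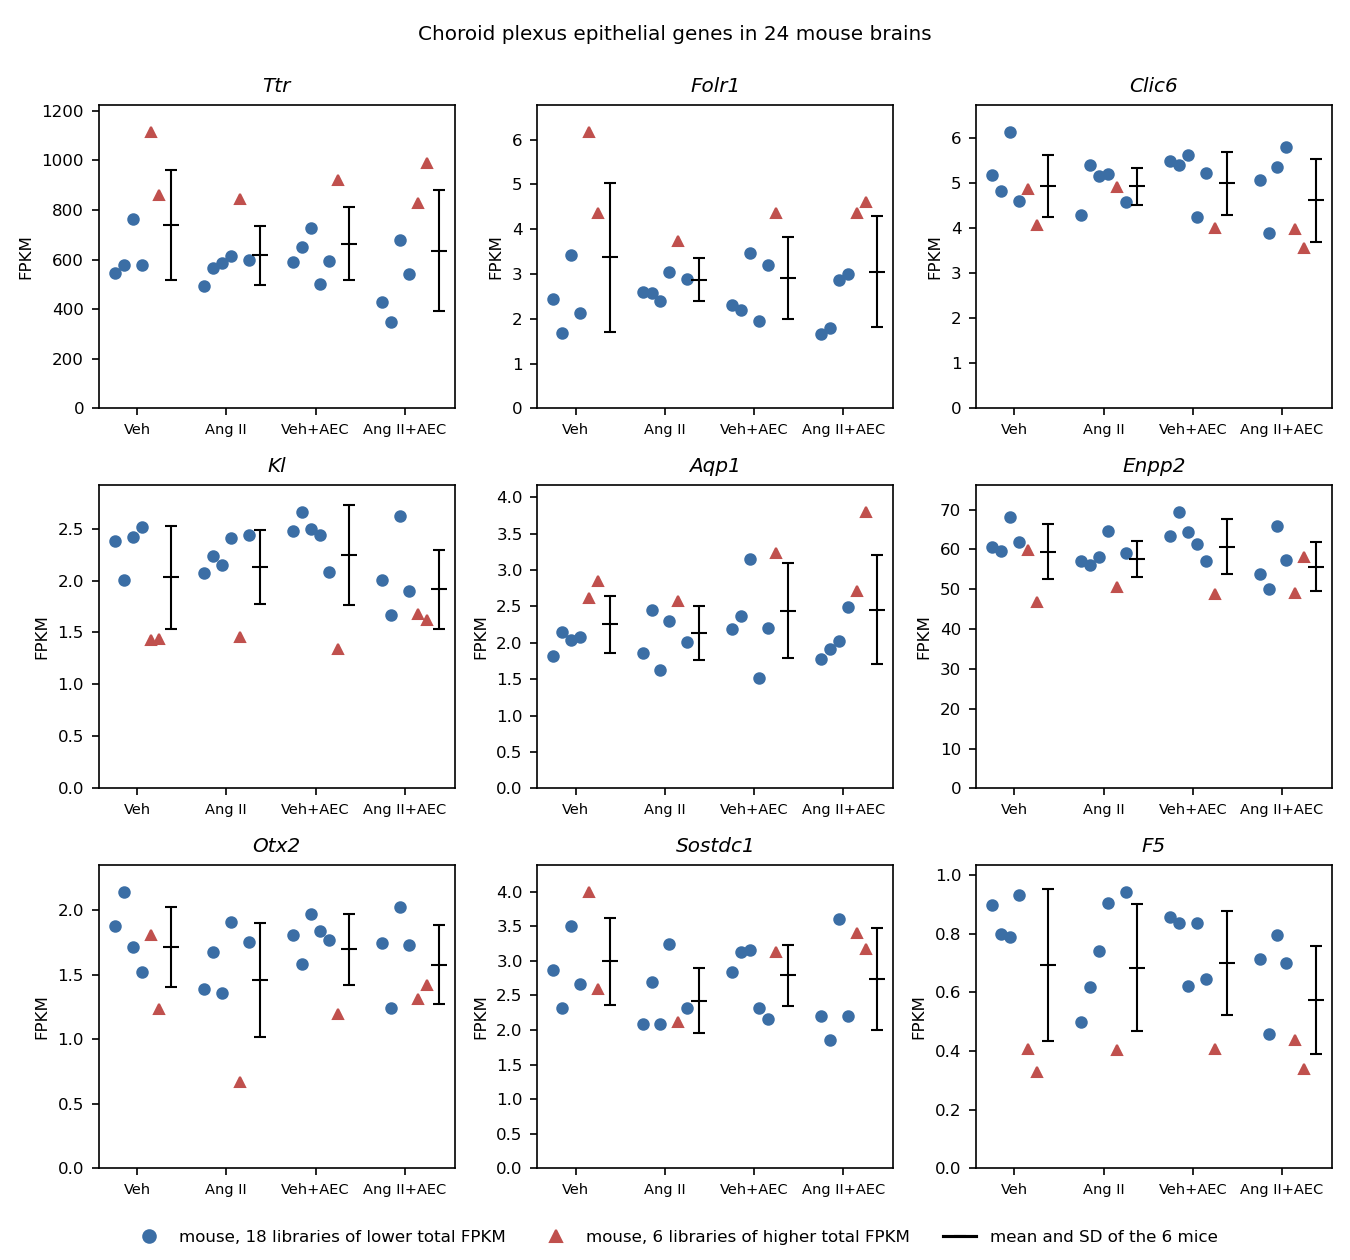
Levels of the 9 choroid plexus epithelial genes in each mouse, as FPKM on axes that start at 0, by treatment group; triangles mark the 6 libraries of higher total FPKM, circles the other 18, and the black dash and bar give the mean and SD of the 6 mice. The 4 groups overlap for all 9 genes, while the triangles of Ttr and Folr1 lie above all circles and those of F5 below all circles.

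Across the 9 members, neither angiotensin II nor AECs gave a detectable difference. In angiotensin II against vehicle, 0 of 9 members passed an unadjusted p of 0.05 in limma, where 2.21% of all genes tested did, and 0 passed after Benjamini-Hochberg adjustment over all genes, where 0% did. A total of 6 of 9 members were on the lower side (44.6% of all genes), with a median log2 fold change of −0.08, against 0.02 over all genes. In angiotensin II + AEC against angiotensin II the unadjusted count was again 0 of 9 (2.54% of all genes), with a median of −0.03 and 6 of 9 members on the lower side (54.7% of all genes). In vehicle + AEC against vehicle it was 0 of 9 (2.41%), with a median of 0.01 and 4 of 9 on the lower side (47.6%). In angiotensin II + AEC against vehicle + AEC it was 0 of 9 (2.66%), with a median of −0.12 and 7 of 9 members on the lower side (52.8% of all genes). The interaction, which asks whether angiotensin II acted differently with and without AECs, also passed in 0 of 9 (2.54%), with a median of 0.08 and 4 of 9 below 0 (54.1%). No gene of the whole table passed the adjusted threshold in any of the 5 contrasts. These contrasts share groups of mice and are not independent of each other.

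The intervals show what size of change this fit could have hidden, with the difference between the library sets left in the spread. With the library set as a term, the SE in angiotensin II against vehicle was 0.13 for Ttr, against 0.23 without it. For F5 it was 0.15 against 0.25, and for Sostdc1 0.16 against 0.17. Over the 4 pairwise contrasts, the 95% confidence intervals of the fold for the 9 members ran from 0.581 at the lowest bound, for F5, to 1.52 at the highest, for Folr1. For Enpp2 the bounds lay between 0.805 and 1.17. For Ttr they lay between 0.613 and 1.36. Fold changes are on the scale of log2(FPKM + 0.1), which understates changes of the lower genes such as F5. No member had groups of mice that did not overlap, where 0.0623%, 0.099%, 0.0623% and 0.0843% of all genes tested did in the 4 pairwise contrasts.

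Members were also compared within each mouse, by taking each member's log2 level minus the mean of the other 8, which removes a shift common to all. In 36 exact permutation tests, 9 members in 4 contrasts, none was below 0.05. The lowest was Sostdc1 in angiotensin II against vehicle, with a difference of −0.21 on the log2 scale (exact permutation p = 0.0628, unadjusted, 6 mice in each group). Kl relative to the other 8 differed by 0.21 in the opposite direction (exact permutation p = 0.286).

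**Figure D2:**
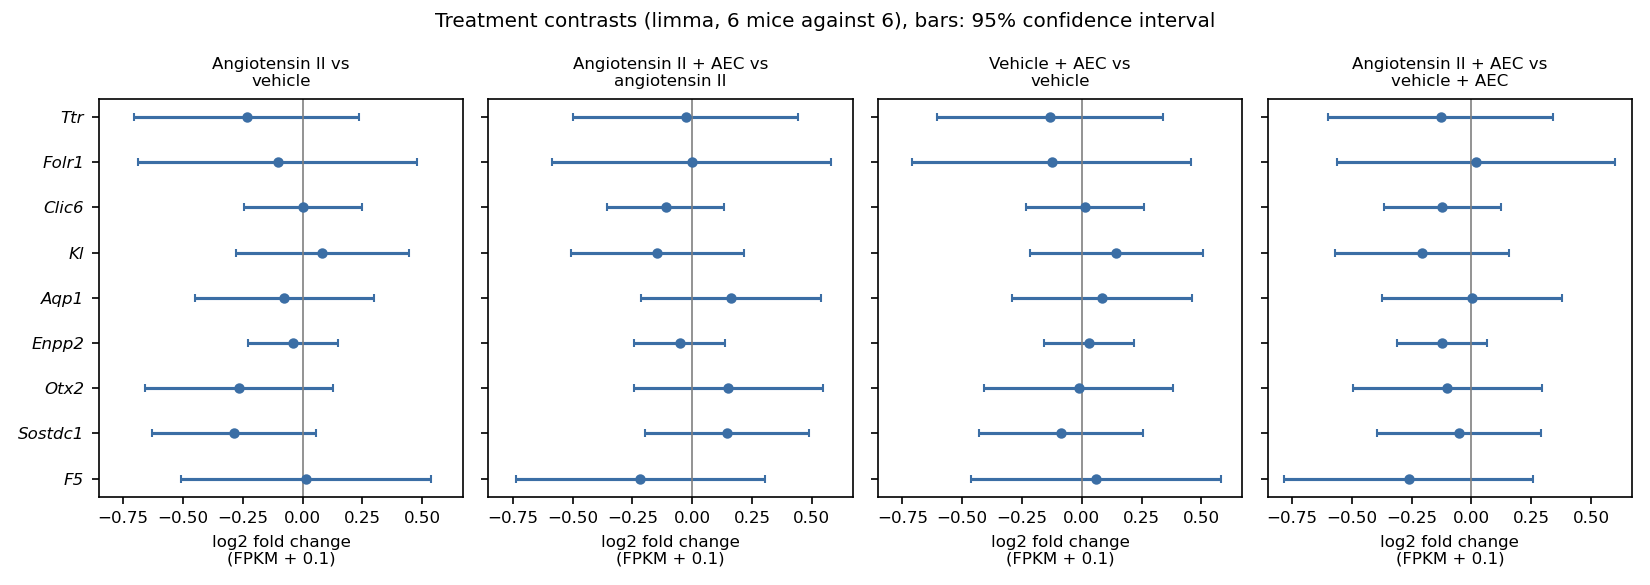
Log2 fold change of each member in the 4 pairwise treatment contrasts from limma, on log2(FPKM + 0.1), with bars for the 95% confidence interval and a vertical line at 0. Every interval crosses 0, with Enpp2 and Clic6 the narrowest and Folr1 and F5 among the widest.

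The same comparisons were repeated with the library set as a term and over the 18 libraries alone, both of which hold the set constant. With the set as a term, 1 of 9 members passed the unadjusted threshold in angiotensin II against vehicle (3.46% of all genes). This was Otx2, with a log2 fold change of −0.35 ± 0.14 (SE, limma adjusted p above 0.99). In the other 4 contrasts of that fit 0 of 9 passed, where 3.9%, 3.54%, 4.01% and 3.41% of all genes did in the order above. Over the 18 libraries alone Otx2 no longer passed, and 0 of 9 members passed in angiotensin II against vehicle (3.83% of all genes), in angiotensin II + AEC against angiotensin II (4.52%), in vehicle + AEC against vehicle (4.16%) and in the interaction (4.15%). In angiotensin II + AEC against vehicle + AEC, 9 of 9 members had log2 fold changes below 0 with the set as a term (48.6% of all genes), with a median of −0.09. Over the 18 libraries it was again 9 of 9 (48.4% of all genes, whose median was 0.00), with 4 and 5 mice in the groups, and 3 passed the unadjusted threshold (4.21% of all genes). They were Ttr (log2 fold change −0.33 ± 0.16), Kl (−0.25 ± 0.11) and Enpp2 (−0.16 ± 0.07, SE), each with a limma adjusted p of 0.998. In exact permutation tests of 4 against 5 mice they had p = 0.167, 0.103 and 0.143, which do not pass. In a further fit, chosen after seeing the data, angiotensin II + AEC replicate 2 was left out, the lowest of the 18 in 7 of 9 members. It was picked for its low values in the group on the lower side, so leaving it out had to move these differences toward 0. No other mouse was left out of the 18, so this fit cannot show whether the counts rest on it alone. Without angiotensin II + AEC replicate 2, 0 of 9 passed (3.86% of all genes), 7 of 9 were below 0 (49.3% of all genes), and the median log2 fold change moved from −0.16 to −0.07. In that fit 0 of 9 also passed in angiotensin II + AEC against angiotensin II (4.33%) and in the interaction (4.23%).

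Leaving out single mice of all 24 changed an unadjusted call in 2 cases. Without angiotensin II replicate 4, Sostdc1 passed the unadjusted threshold in angiotensin II against vehicle (log2 fold change −0.37 ± 0.17, SE, exact permutation p = 0.0281 for 5 against 6 mice). Without vehicle + AEC replicate 6, Kl (−0.34 ± 0.16, SE) and Enpp2 (−0.18 ± 0.09, SE) passed in limma in angiotensin II + AEC against vehicle + AEC, with exact permutation p-values of 0.0303 and 0.0606 for 6 against 5 mice. Calls after adjustment stayed at 0 in each.

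Markers of other cells that make a member were read in the same contrasts. The 8 oligodendrocyte markers, whose cells also make Enpp2, had log2 fold changes above 0 in angiotensin II + AEC against vehicle + AEC (8 of 8, median 0.11, where 47.2% of all genes were above 0). None of these markers passed the unadjusted threshold (2.66% of all genes), while Enpp2 had −0.12. Their summed level was 1213 to 1830 FPKM in angiotensin II + AEC and 1264 to 1662 FPKM in vehicle + AEC. The 6 erythroid markers, whose cells also make Aqp1, were also above 0 in that contrast (6 of 6, median 0.80), with Slc4a1 alone past the unadjusted threshold (0.91 ± 0.27, SE), where Aqp1 had 0.00. Hbb-bs, the most abundant of them, had a mean of 49.2 FPKM. The summed level of the 6 ranged from 41.4 to 169 FPKM in angiotensin II + AEC and from 37.7 to 123 FPKM in vehicle + AEC. The part of these cells in the levels of Enpp2 and Aqp1 was not tested.

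The rest of the choroid plexus programme was read from lists. Of 23 other choroid plexus markers, 0 passed the unadjusted threshold in angiotensin II against vehicle (2.21% of all genes). There, 11 were higher and 12 lower (44.6% of all genes were lower), with a median log2 fold change of 0.00. In angiotensin II + AEC against angiotensin II, 1 passed (2.54% of all genes), the tight junction gene Cldn1 (−0.40 ± 0.17, SE), which is named because of its value. In vehicle + AEC against vehicle, and in angiotensin II + AEC against vehicle + AEC, 0 passed (2.41% and 2.66% of all genes), with medians of 0.02 and −0.10. For 12 genes of ion and water transport in fluid secretion, the count was 0 in all 5 contrasts (2.21% to 2.66% of all genes). The abundant genes of this list included the sodium pump subunit Atp1b1 (338 FPKM), carbonic anhydrase Car2 (88.9 FPKM) and the kinase Stk39 (16.6 FPKM), which are made in neurons and glia as well.

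Neighbouring cell types gave few unadjusted calls and no adjusted call. Of all genes tested, 2.21% to 2.66% passed the unadjusted threshold in the 5 contrasts. The lists are short, so the single calls below are not read as results about these cells. Genes counted here are named because of their values, other than the most abundant of each list. Among 12 ependymal markers, led by Foxj1 (6.56 FPKM), 1 was higher in angiotensin II + AEC against angiotensin II, the dynein light chain Dynlrb2 (log2 fold change 0.41 ± 0.19, SE). Among 12 meningeal and stromal fibroblast markers, led by Islr (7.48 FPKM), 11 of 12 had log2 fold changes below 0 in vehicle + AEC against vehicle (47.6% of all genes). In angiotensin II + AEC against vehicle + AEC, 11 of 12 were above 0 (47.2%). In each, 1 passed the unadjusted threshold, the proteoglycan Lum (−0.34 ± 0.14, SE) and the collagen Col1a1 (0.60 ± 0.24). Both contrasts share the vehicle + AEC group, which held 1 of the 6 libraries of higher total FPKM, against 2 in each group it is set against. All of these markers but Igf2 (−0.10) were higher in the 6 libraries, Col1a1 the most (log2 difference 0.94). The part of the library set in these counts was not tested. Among 5 markers of fenestrated endothelium, the kind of vessel inside the choroid plexus, led by Plvap (6.23 FPKM), Esm1 was higher in angiotensin II + AEC against vehicle + AEC (0.72 ± 0.25, SE). Pituitary markers reached a summed level of 1578 FPKM in 1 angiotensin II mouse, against 28.4 FPKM or less in the vehicle mice. Of 6 markers of the thalamus and midbrain, which also make Otx2, 1 was higher in angiotensin II + AEC against angiotensin II, En1 (0.57 ± 0.23, SE). Of the 6 pineal and retinal markers, Tph1 was lower in that contrast (−0.32 ± 0.14, SE) and Asmt in angiotensin II + AEC against vehicle + AEC (−0.57 ± 0.25).

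The clearest difference among the members was between the library sets, and it ran with gene length. The 4 members of 1219 to 2627 bases were higher in the 6 libraries. They were Ttr (log2 difference 0.69), Folr1 (0.85), Aqp1 (0.48) and Sostdc1 (0.22). The 5 members of 3914 to 9328 bases were lower, namely Clic6 (−0.26), Otx2 (−0.45), Enpp2 (−0.21), F5 (−0.79) and Kl (−0.57). Of all genes with a mean of at least 1 FPKM, 47.7% were higher and 52.3% lower in the 6. Ttr ran from 827 to 1112 FPKM in the 6 libraries and from 348 to 762 FPKM in the 18, so that the sets did not overlap. Folr1, at 3.73 to 6.16 FPKM against 1.66 to 3.46 FPKM, did not overlap either. F5 lay wholly below, at 0.327 to 0.439 FPKM against 0.459 to 0.940 FPKM. Among genes with a mean of at least 1 FPKM, 22.1% were higher in every one of the 6 libraries than in all 18, and 28.9% were lower. Over all genes tested, which include low genes such as F5, the shares were 11.2% and 16.3%, so such a gap was common in the table. No test was made, because the sets were defined from the data, by their sum of FPKM. In that sum a fragment on a short gene weighs more than one on a long gene. A relation of the difference to gene length is therefore in part built into the split.

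The relation to length was seen across the table. Spearman's rho between gene length and the difference was −0.85 over the 9 members and −0.52 over 13633 genes. Both are given as a description, since genes share the same libraries and the split by summed FPKM itself favours such a relation. The median log2 difference of all genes was 0.46 up to 1500 bases and 0.31 from 1500 to 3000 bases. It was −0.02 from 3000 to 5000, −0.26 from 5000 to 7500 and −0.49 above 7500 bases. Ttr and Folr1 lay above the upper quartile of the genes of their length, Otx2 and F5 below the lower quartile, and the other 5 members between the quartiles. For the share of G and C in the longest transcript, rho was 0.28 over the members and 0.45 over all genes. Length and base composition as a part of the differences between members were not tested further.

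The direction was nearly the same within each treatment group. Ttr was higher in the 6 libraries by 0.56 to 0.90 on the log2 scale in the 4 groups, Folr1 by 0.46 to 1.11 and Aqp1 by 0.33 to 0.63. F5 was lower in all 4 groups, with differences of −1.03 to −0.63, as was Kl, with −0.81 to −0.28. Otx2 differed by −1.15 to −0.25 and Enpp2 by −0.36 to −0.08. The exceptions were in angiotensin II, where the set is 1 mouse: Clic6 had 0.00 and Sostdc1 −0.20. Correlations over all 24 mice therefore mix this split with the mice themselves, and are given only within the sets.

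**Figure D3:**
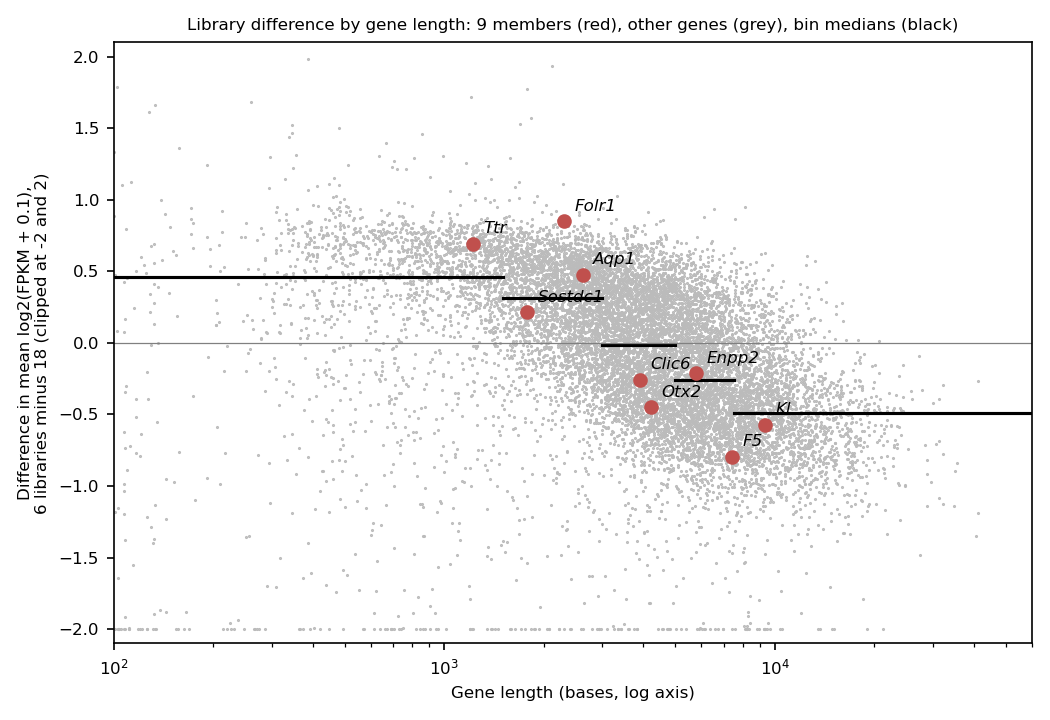
Difference in mean log2(FPKM + 0.1) between the 6 libraries of higher total FPKM and the other 18, against gene length in bases on a log axis; grey points are genes with a mean of at least 1 FPKM, clipped at −2 and 2, black lines are medians of length bins, and red points are the 9 members. The 4 shorter members lie above 0 and the 5 longer ones below, along the fall of the bin medians from 0.46 to −0.49.

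Within the 18 libraries the members varied together. Of 36 pairs, 35 had a Pearson's r above 0, with a median of 0.50 and a range from −0.11 to 0.87. The median r of a member with all other genes of at least 1 FPKM was near 0 for each of the 9, from −0.03 to 0.05. Its upper 5% began at 0.39 to 0.52. All 36 pairs were computed and the p-values are unadjusted permutation values from 100000 draws. A total of 21 pairs were under 0.05.

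The closest group was Ttr, Enpp2, Kl and Sostdc1. Kl and Enpp2 had r = 0.87 and rho = 0.82 (permutation p = 1e-05, the smallest that can be given, and 7e-05). Enpp2 and Sostdc1 had r = 0.86 and rho = 0.85 (permutation p = 1e-05 and 4e-05). Ttr and Enpp2 had r = 0.85 and rho = 0.79 (permutation p = 1e-05 and 0.00016). Leaving out the 2 mice farthest from the median of the x axis left r at 0.82, 0.85 and 0.71 for these pairs. Kl and Sostdc1 had r = 0.80, with 0.75 without 2 mice, and Ttr and Sostdc1 had r = 0.77, also with 0.75. Ttr and Kl, at r = 0.75, fell to 0.50 without 2 mice and to 0.58 without angiotensin II + AEC replicate 2 alone. These genes lie on different chromosomes, and their lengths run from 1219 to 9328 bases.

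Aqp1, F5 and Folr1 stood farther out. Aqp1 and F5 had r = −0.11 and rho = −0.13 (permutation p = 0.649 and 0.615), the only negative pair. Folr1 and F5 had r = 0.03 (rho −0.11, permutation p = 0.904 and 0.673). Kl and F5, by contrast, had r = 0.68 and rho = 0.56 (permutation p = 0.00183 and 0.0172), with r = 0.52 without 2 mice. Fragments were few for these members, at 67 to 255 per mouse for Folr1, 79 to 191 for Aqp1 and 45 to 139 for F5. Counting alone gives them a coefficient of variation of 9.41% to 9.65% over the 18 libraries, against the 17.7% to 22.6% observed. Sostdc1, at 63 to 128 fragments, was in the closest group. Aqp1 had r = 0.28 with Enpp2 and 0.16 with Kl, which were counted more deeply, but the counting error of Aqp1 itself enters both values. The part of counting error in the low r values was not tested.

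**Figure D4:**
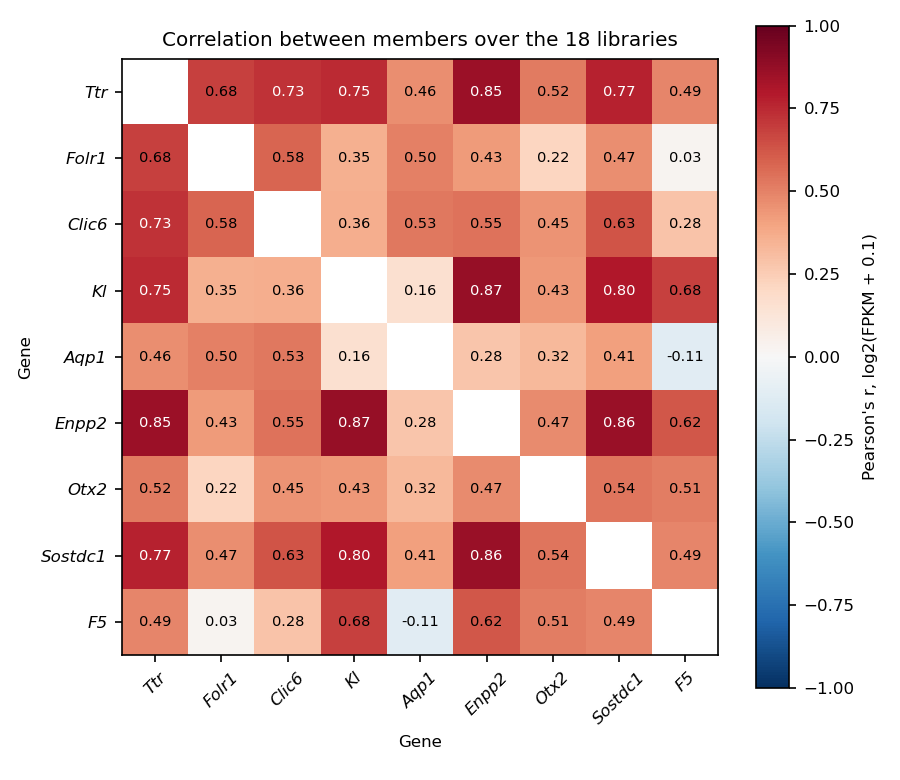
Pearson's r of log2(FPKM + 0.1) for each of the 36 pairs of members over the 18 libraries, with r printed in each square and the colour scale from −1 (blue) to 1 (red). Ttr, Kl, Enpp2 and Sostdc1 form the squares of highest r, from 0.75 to 0.87, and Aqp1 with F5 is the only pair below 0.

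The spread between mice of the 18 libraries was wide for most members. Ranked by the SD of log2 level among 13649 genes of at least 1 FPKM, Folr1 was at percentile 92.8, Sostdc1 at 90.4, Ttr at 89.7, F5 at 89.4, Aqp1 at 87.4, Otx2 at 82.2, Kl at 78.0 and Clic6 at 76.0. Enpp2, at 57.0, was near the middle. Ttr differed 2.19-fold between the highest and lowest mouse, where the median gene differed 1.33-fold. The lowest was angiotensin II + AEC replicate 2, at 348 FPKM of Ttr, which was the lowest of the 18 in 7 of 9 members and below the median in 9 of 9. Angiotensin II + AEC replicate 1 was below the median in 9 of 9, and angiotensin II replicate 4 above it in 9 of 9. Angiotensin II replicates 1 and 3 were below the median in 8 of 9. These 4 low mice, the only ones below the median in at least 8 members, had all received angiotensin II, with or without AECs. The 4 mice above the median in at least 8 members were angiotensin II replicate 4, angiotensin II + AEC replicate 3 and vehicle + AEC replicates 1 and 3, so that angiotensin II mice were at both ends. The 18 libraries hold 5 angiotensin II, 4 angiotensin II + AEC, 4 vehicle and 5 vehicle + AEC mice. The members varied together, so these counts are not independent, and no test was made on them.

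Since 1 mouse was low in nearly all members, the pairs were recomputed without it. The median r over the 36 pairs moved from 0.50 to 0.36, and 33 of 36 stayed above 0. With each mouse taken as its deviation from its group mean, the median was 0.47 and 34 of 36 pairs were above 0. Over the 6 libraries the median r was 0.16, with a range from −0.84 to 0.92 and 25 of 36 above 0. Few mice stand behind that range. Otx2 and Sostdc1 had r = 0.92 and rho = 0.89 there (exact permutation p = 0.0125 and 0.0333, n = 6), and Clic6 and Aqp1 had r = −0.84 and rho = −0.83 (exact permutation p = 0.0472 and 0.0583, n = 6).

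**Figure D5:**
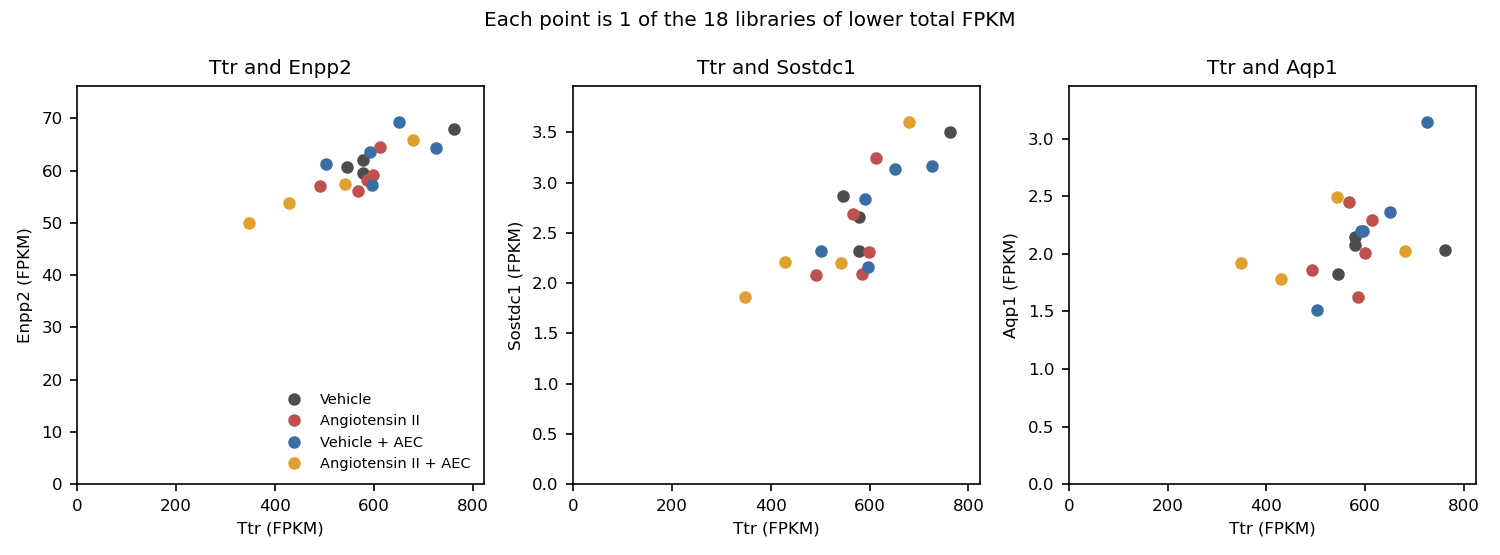
Levels of Enpp2, Sostdc1 and Aqp1 against Ttr, in FPKM on axes that start at 0, with 1 point for each of the 18 libraries of lower total FPKM and colours for the treatment groups. Enpp2 (r = 0.85) and Sostdc1 (r = 0.77) climb with Ttr, Aqp1 less so (r = 0.46), and the lowest Ttr, 348 FPKM, is an angiotensin II + AEC mouse.

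A score, the mean of the 9 members after each was scaled to the same spread, was set against all genes of at least 1 FPKM as a description. Ranked over 24 mice, the 10 nearest genes outside the members were Zic1, Adamts10, Car8, Zic2, Cldn2, Cdkn1b, Sat1, Ppp1r17, Rasa4 and Gabra6. Since the 24 mice hold both sets, their r is given within the 18 libraries, where it was 0.78 for Cldn2, a tight junction gene of the choroid plexus, 0.75 for Car8 and 0.74 for Ppp1r17, and 0.64 to 0.71 for the other 7. When the ranking itself was made over the 18 libraries, the 10 nearest shared 1 gene with these, Cldn2. The other 9 were Gm22753 (r = 0.84), Icmt (0.81), Rhod (0.79), Lhx1os (0.78), Fam107b (0.77), Pik3r3, Steap2, Mir5112 and Drc7 (0.76 each), of which Gm22753 and Mir5112 are 107 and 60 bases long. Car8, Ppp1r17, Gabra6, Zic1 and Zic2 are known in the cerebellum. A list of 12 cerebellar genes was put together after this was seen and was not tested. It holds these 5 genes, which prompted it. The other 7 had an r with the score over the 18 libraries from 0.39 to 0.61, with a median of 0.59, where 50.4% of all genes were above 0 and the median was 0.00. The part of the dissected region in the score was not tested.

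The other lists were read against the same score over the 18 libraries, for genes with a mean of at least 0.1 FPKM. Of the 23 other choroid plexus markers, 21 had an r above 0, with a median of 0.39. The 4 most abundant had 0.75 for Kcne2, 0.72 for 1500015O10Rik, 0.39 for Slc29a4 and 0.08 for Slc13a4. The highest were Tmem72 (0.89) and Slc4a5 (0.81), named because of their values. The oligodendrocyte markers went the other way, with 0 of 8 above 0 and a median of −0.28, although Enpp2, which is part of the score, had 0.89. For ion and water transport the median was −0.01 (6 of 12 above 0), for ependymal cells 0.22 (8 of 11), for fibroblasts 0.13 (7 of 12), for fenestrated endothelium −0.14 (1 of 5), for erythroid cells 0.01 (3 of 6), for neurons −0.10 (2 of 6), for the pituitary 0.17 (6 of 6), for the pineal gland and retina 0.07 (2 of 3) and for the thalamus and midbrain 0.25 (4 of 6).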

How the data were processed

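Brain RNA of 24 mice was measured by poly-A RNA sequencing on an Illumina HiSeq platform. The authors deposited a table of FPKM values with 1 column per mouse and with gene lengths, names and GRCm38 coordinates, made after mapping to the Ensembl mouse genome. Their tests used DESeq 1.10.1, according to the processing notes of the submitters. The aligner, the counter and the annotation release are not given in the sources used here. Of the 9 members, 8 have the same coordinates in GENCODE M21, and Ttr is the exception. After removal of gene length, 100% of the values came out as whole multiples of 1 fragment, which gave 16536449 to 25308700 fragments per mouse. The lowest member, F5, rests on 45 to 139 fragments per mouse.

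Groups and replicate numbers came from the labels. According to the study's methods the mice were bred in house and caged with littermates, and which of the 24 were littermates is not given in the sources used here. Genes above 0 in at least 6 of 24 mice were tested in limma 3.58.1 (R 4.3.3, lmFit and eBayes with trend) on log2(FPKM + 0.1), with all 4 groups in 1 fit and Benjamini-Hochberg adjustment over all genes. Single members were tested by two-sided exact permutation of 6 against 6 mice, where the smallest p is 0.00216. Correlations used log2(FPKM + 0.1) and 100000 permutations, or exact ones for 6 mice. Python 3.11.15, scipy 1.17.1 and matplotlib 3.10.9 were used for the rest. The fit was tested on simulated data.

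Alternatives were a pseudocount of 1 or 0.01, no filter or a mean of at least 1 FPKM, only the compared groups, the replicate number as a block, median-ratio rescaling, limma voom on the recovered fragments, array weights, the library set as a term, the 18 libraries alone and each mouse left out. Fits over the 18 libraries without angiotensin II + AEC replicate 2, the ranking of genes over the 18 libraries and the cerebellar list were added after seeing the data. The members and lists were chosen with earlier results of these data known. Named genes were all members, the 10 genes nearest to the member score, and the 4 most abundant genes of each list, of which the text gives the leading ones, and 1 gene of a list is not reported here. Counting limits cover counting error only. Promoters were taken from RefSeq for GRCm38.p6 and matched 4 members besides Ttr, whose sequence is not reported here.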

Additional observations from a re-analysis of the deposited data

Results flagged for a closer look

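For each member and treatment group, the highest and lowest mouse were compared with the rest by Dixon's ratio of gap to range, over 36 groups of 6 mice, where chance flags about 1 in 20 groups. A total of 2 values stood out. Ttr was 842 FPKM in angiotensin II replicate 5, while the other 5 mice of that group had 491.5 to 613.1 FPKM. Kl was 1.46 FPKM in the same mouse, and the other 5 had 2.08 to 2.44 FPKM. This mouse is the only one of its group among the 6 libraries of higher total FPKM, in which Ttr was higher and Kl lower in the other 3 groups too. Without that mouse the calls of both genes in angiotensin II against vehicle were as before, at 0 past the unadjusted threshold. The part of the library set in these values was not tested beyond the fits given in the report.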

How the results depend on the processing

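Counts of members past the unadjusted threshold were 0 in all 5 contrasts and stayed at 0 except as follows. In angiotensin II against vehicle the count was 1 with the library set as a term, and 0 to 1 with single mice left out. In angiotensin II + AEC against vehicle + AEC it was 1 with array weights (Enpp2, log2 fold change −0.15 ± 0.07, SE), 3 over the 18 libraries alone, and 0 to 2 with single mice left out. Counts after adjustment over all genes were 0 under every alternative run, and the median of the 9 members moved by less than 1 SD between mice in each. The filters, only the compared groups and the replicate block do not change a member's log2 fold change. The median could move there only because F5 is not in the fit at a mean of at least 1 FPKM.

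Signs of small log2 fold changes turned often, and their causes were not tested. With a pseudocount of 1 the turned values were for angiotensin II against vehicle F5 −0.0020, for angiotensin II + AEC against angiotensin II Folr1 0.014. With median-ratio rescaling they were for angiotensin II against vehicle Clic6 −0.019, F5 −0.0032, for angiotensin II + AEC against angiotensin II Folr1 0.013. Limma voom on the recovered fragments turned 1 value, for angiotensin II + AEC against angiotensin II Folr1 0.00033. With array weights they were for angiotensin II against vehicle Folr1 0.11, Clic6 −0.053, Kl −0.011, F5 −0.17, for vehicle + AEC against vehicle Folr1 0.059, Otx2 0.0059, F5 −0.10, for angiotensin II + AEC against vehicle + AEC Folr1 −0.11, Aqp1 −0.097, for the interaction Ttr −0.12, Folr1 −0.22, Aqp1 −0.081. With the library set as a term they were for angiotensin II against vehicle Folr1 0.041, Clic6 −0.040, Kl −0.010, Aqp1 0.0049, F5 −0.12, for vehicle + AEC against vehicle Folr1 0.018, Clic6 −0.029, Enpp2 −0.0045, F5 −0.073, for angiotensin II + AEC against vehicle + AEC Folr1 −0.12, Aqp1 −0.078, for the interaction Ttr −0.13, Folr1 −0.17, Aqp1 −0.083. Over the 18 libraries alone they were for angiotensin II against vehicle Folr1 0.19, Clic6 −0.067, Kl −0.038, Aqp1 0.0089, F5 −0.21, for angiotensin II + AEC against angiotensin II Clic6 0.020, Sostdc1 −0.033, for vehicle + AEC against vehicle Folr1 0.12, F5 −0.16, for angiotensin II + AEC against vehicle + AEC Folr1 −0.18, Aqp1 −0.12, for the interaction Ttr −0.23, Folr1 −0.37, Clic6 0.015, Aqp1 −0.13, F5 0.036. Without angiotensin II + AEC replicate 2 in those libraries they were for angiotensin II + AEC against angiotensin II Clic6 0.14, F5 0.020, for angiotensin II + AEC against vehicle + AEC Folr1 −0.070, Clic6 0.064, Aqp1 −0.093, Otx2 0.029, for the interaction Ttr −0.070, Folr1 −0.26, Clic6 0.13, Aqp1 −0.10, F5 0.18. None of these values passed a threshold. A pseudocount of 0.01 turned no sign. No filter, a mean of at least 1 FPKM, only the compared groups and the replicate block could not turn one. They leave the log2 fold change of a member as it is, and F5 is not in the fit at a mean of at least 1 FPKM.

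Leaving out each mouse in turn gave ranges of the log2 fold change across 0 for angiotensin II against vehicle Folr1 −0.27 to 0.093, Clic6 −0.051 to 0.065, Kl −0.0067 to 0.18, Enpp2 −0.11 to 0.00029, F5 −0.15 to 0.13. They were, for angiotensin II + AEC against angiotensin II Ttr −0.17 to 0.13, Folr1 −0.14 to 0.14, Otx2 −0.041 to 0.24, and for vehicle + AEC against vehicle Folr1 −0.29 to 0.070, Clic6 −0.040 to 0.076, Aqp1 −0.0028 to 0.21, Enpp2 −0.037 to 0.092, Otx2 −0.099 to 0.077, F5 −0.10 to 0.18. They were, for angiotensin II + AEC against vehicle + AEC Ttr −0.27 to 0.026, Folr1 −0.12 to 0.17, Aqp1 −0.13 to 0.089, Sostdc1 −0.14 to 0.046, and for the interaction Ttr −0.041 to 0.26, Folr1 −0.073 to 0.29, Aqp1 −0.052 to 0.17, Otx2 −0.027 to 0.25.

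The replicate number was tried as a block. The labels do not tie a number to a shared litter or day. Of 36 pairs of mice with the same number, 28 had deviations from the group means with an r above 0.1 (range −0.22 to 0.80) and 8 did not. Since the labels give no pairing, the main fit did not use the number. In 18 of 72 comparisons of a mouse with another group it correlated best with its own number, where 12 are given by equal odds. The 6 libraries that stood apart all carry the number 5 or 6. Every group holds the same replicate numbers, with 1 mouse each, so the block could not change a log2 fold change. The median for angiotensin II against vehicle therefore stayed at −0.08 by design. The block can change p-values, and all counts were still 0. The median r of the 36 pairs of members lay between 0.16 and 0.50 under its alternatives. Of the 10 genes nearest to the member score, 6 were shared when genes of at least 0.1 FPKM were ranked and 1 over the 18 libraries. Group sizes of 6 mice and the fragments behind F5, Otx2 and Sostdc1 limit what these data can show.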

Other observations

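The recovered fragments are counts without division by length, so their order differs from that by FPKM. Kl, at a mean of 2.08 FPKM, had more fragments than Sostdc1, at 2.74 FPKM. Enpp2 had 4876 to 8327 fragments per mouse, Kl 227 to 515, Clic6 250 to 465, Otx2 47 to 181 and Sostdc1 63 to 128. Counting alone gives a coefficient of variation of 1.21% for Enpp2 over the 18 libraries, against 8.21% observed, and of 10.5% for Sostdc1, against 20.2% observed. For Clic6 the values were 5.10% and 11.3%, and for Otx2 8.42% and 13.6%. Each of the 9 members thus varied more between mice of the 18 libraries than counting gives. Over the 6 libraries F5 did not, with 11.3% observed and 13.4% from counting.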
